A study of Mus musculus with 12 samples.

Results

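The 10 genes described here encode 7 ligands of the epidermal growth factor (EGF) family, Areg, Ereg, Hbegf, Tgfa, Btc, Epgn and Nrg1, and 3 receptors of the ErbB family, Egfr, Erbb2 and Erbb3. They were taken by name from a list of ligands and receptors, out of 47069 genes in the count table. RNA was sequenced from mouse liver cancer organoid cells sorted on LGR5–GFP, with 4 groups and 3 libraries in each: LGR5+ and LGR5- cells that were untreated, and LGR5+ and LGR5- cells after 5-FU. All 4 groups share the strain, C57BL/6, and the genotype, LGR5-DTRGFP+, in which the Lgr5 locus drives GFP and the diphtheria toxin receptor, so the LGR5- cells carry the allele too. 5-FU, or 5-fluorouracil, is an antimetabolite that blocks thymidylate synthesis, and although the study describes 5-FU treatment of organoids in culture, no dose or duration is tied to these libraries in the sources used here. The tumors were induced with diethylnitrosamine given to young mice, taken months later and grown as organoids in a medium that contains EGF itself. Which mice these libraries came from, and whether the 3 libraries of a group came from separate cultures or animals, are also not given, so P values measure only the spread between these libraries, which may be technical.

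EGF family ligands are made as membrane proteins whose outer part is cut off by proteases of the ADAM family and then binds an ErbB receptor on the same or a neighbouring cell. Amphiregulin (Areg), TGF-alpha (Tgfa) and epigen (Epgn) bind EGFR, HB-EGF (Hbegf), betacellulin (Btc) and epiregulin (Ereg) bind EGFR and ErbB4, and neuregulin-1 (Nrg1) binds ErbB3 and ErbB4. ErbB2 has no known ligand and ErbB3 has little kinase activity, so these receptors signal in pairs with another family member, mainly through the RAS-ERK and PI3K-AKT routes. In liver, EGFR ligands are known for their part in regeneration after tissue loss.

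Counted reads per library ranged from 13750591 to 19323514, and a count of 0 allows up to 3 reads, or 0.165 to 0.220 CPM (counts scaled to the library total after TMM normalization). No molecular identifiers were used, so PCR copies of a molecule are counted separately and the limit holds for counting error alone. Mitochondrial genes took 6.93% of the reads of untreated LGR5- replicate 3 and 6.44% of those of 5-FU LGR5- replicate 3, against 1.47% to 3.08% elsewhere. Some results for Areg, Tgfa, Egfr and Erbb3 are also given without these libraries, together or singly. Lgr5 did not separate the sorted populations: it was at 28.8 ± 6.63 CPM (SD, n = 3) in untreated LGR5- and at 25.7 ± 2.12 CPM in untreated LGR5+ cells, and at 25.1 ± 9.50 and 27.0 ± 0.196 CPM after 5-FU, so the populations are named by their sort. The labelled tissue was checked against marker genes. The 6 cholangiocyte markers summed to between 2360 and 11900 CPM, whereas the 7 hepatocyte markers summed to at most 56.8 CPM with Serpina1a at 0 in all groups and Hnf4a at no more than 2 reads, and Alb was under 1 CPM as a group mean. The lung epithelium gene Sftpc was at 4285 to 12410 CPM, Sftpd at 55.3 to 375 CPM and the lung transcription factor gene Nkx2-1 at 49.3 to 63.2 CPM as group means. The other lung markers were Sftpb at 16.3 to 27.2, Sftpa1 at 6.71 to 24.9 and Scgb1a1 at 1.6 to 50.7 CPM. The hepatocyte marker Afp was at 15.8 to 44.0 CPM as group means, within the range of these lung markers. The hepatocyte markers of the labelled tissue other than Afp were thus low or at 0, while the lung markers were present at varied levels.

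Areg had the clearest change with 5-FU among the 10 genes, and its gene lies at chr5:91139599-91148432 on the plus strand of GRCm38, in a cluster of 4 of the 7 ligand genes. In order of position these are Epgn, Ereg, Areg and Btc, from 91027464 to 91402994, with 3 non-coding genes between them, Gm19610, Gm23092 and Gm19619, that held 0, 2 and 6 reads over all 12 libraries. Promoter sequences were matched by symbol in a RefSeq table on GRCm38.p6 for 6 of the 10 genes: Areg, Tgfa, Btc, Epgn, Egfr and Erbb2. The 250 bases upstream of the start site are shown for the genes among these that changed with 5-FU. Capitals mark matches to the searched motifs, TGACGTCA (the cAMP response element) and TGANTCA (the AP-1 element) on both strands and TATAAA (the TATA box) on the strand of the gene. The sequences are those of Areg at chr5:91139349-91139598 on the plus strand, Btc at chr5:91402995-91403244 on the minus strand and Egfr at chr11:16751953-16752202 on the plus strand.
Areg: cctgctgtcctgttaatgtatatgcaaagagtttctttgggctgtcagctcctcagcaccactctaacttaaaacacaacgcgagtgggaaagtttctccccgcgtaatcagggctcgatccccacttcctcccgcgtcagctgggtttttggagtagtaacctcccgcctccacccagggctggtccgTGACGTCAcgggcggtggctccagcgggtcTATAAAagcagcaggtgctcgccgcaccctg
Btc: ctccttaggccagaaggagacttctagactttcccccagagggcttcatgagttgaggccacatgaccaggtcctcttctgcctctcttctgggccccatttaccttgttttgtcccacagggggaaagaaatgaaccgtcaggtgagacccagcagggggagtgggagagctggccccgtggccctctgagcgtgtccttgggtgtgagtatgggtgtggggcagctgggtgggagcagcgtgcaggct
Egfr: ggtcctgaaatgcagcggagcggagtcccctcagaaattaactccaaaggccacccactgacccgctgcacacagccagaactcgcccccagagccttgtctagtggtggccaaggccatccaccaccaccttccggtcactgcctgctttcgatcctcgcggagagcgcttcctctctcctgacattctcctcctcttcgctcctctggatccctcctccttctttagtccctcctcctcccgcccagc

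In Areg the TGACGTCA match covers bases 61 to 54 before the start and the TATAAA match bases 31 to 26 before it, and the 2 do not overlap. Searched over 250 bases before to 50 after the start, 1.79% of 32851 promoters hold TGACGTCA, 7.81% hold TGANTCA and 8.32% hold TATAAA. No match to the 3 motifs lies in that window of Btc, Egfr, Tgfa or Erbb2, and Epgn has 1, a TATAAA. A match describes the letters of the sequence and not a bound site, and nothing was measured here at these promoters.

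Of the 10 genes, 8 had enough reads to be tested, Ereg and Epgn being too low. After 5-FU, Areg, Nrg1, Egfr and Btc rose in LGR5+ cells and no member fell: 4 of the 8 were called at an adjusted P under 0.05, where 16% of the 16157 genes tested were called in either direction, 9.66% as higher and 6.37% as lower. In LGR5- cells Areg, Nrg1 and Egfr rose and none fell, 3 of the 8, against 15.4% called in either direction, 8.3% as higher and 7.11% as lower. Hbegf, Tgfa, Erbb2 and Erbb3 passed the threshold in neither population. RNA from whole sorted populations was measured, so a higher level per cell and a larger share of cells with the transcript cannot be told apart.

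**Figure D1:**
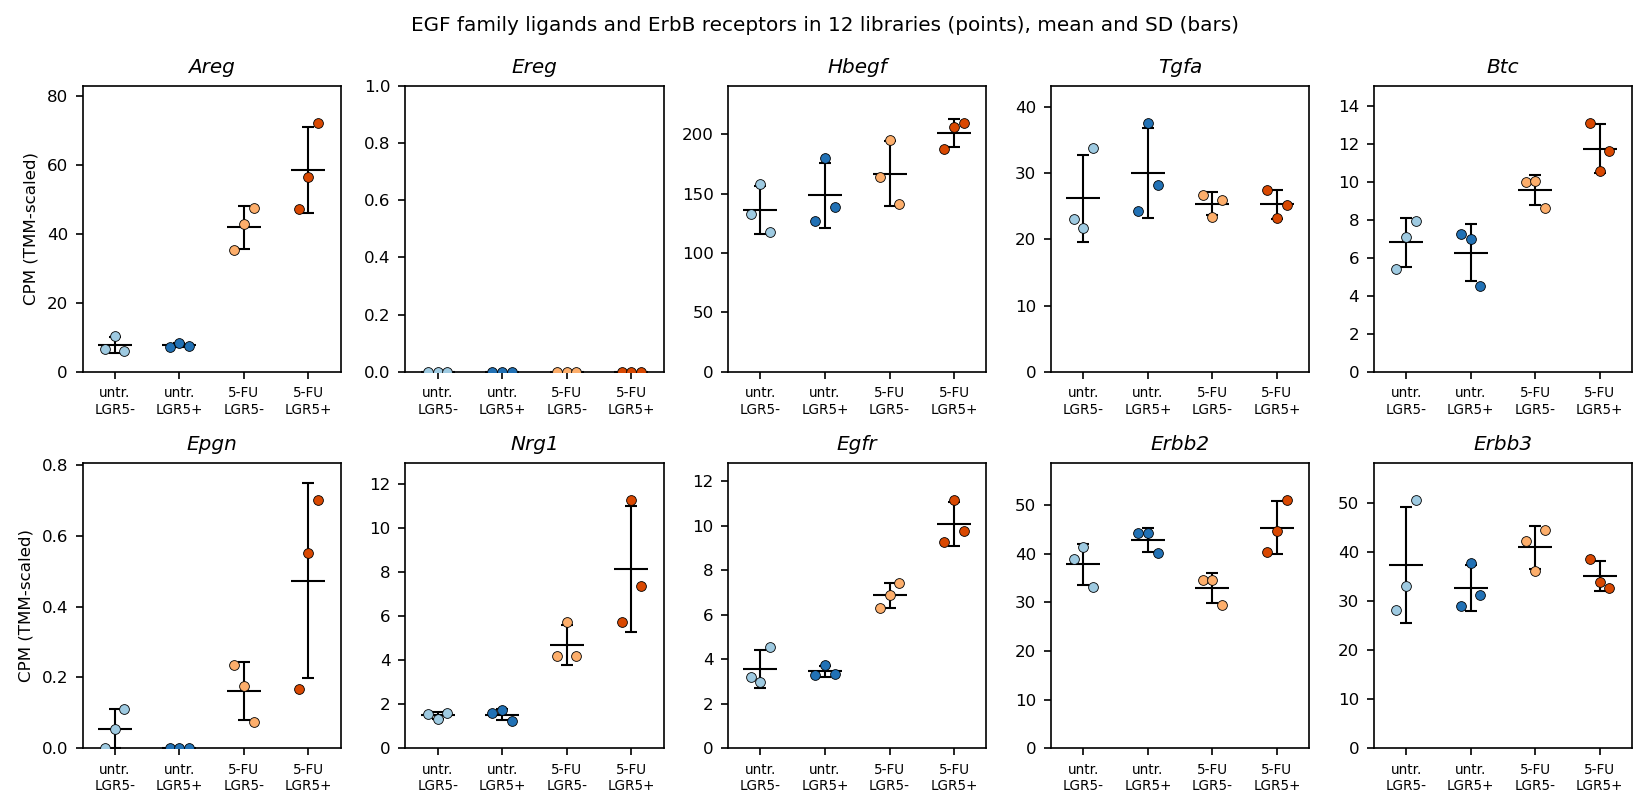
CPM after TMM scaling (vertical axis, from 0, each gene on its own scale) of the 10 genes in the 4 groups. Points are the 3 libraries of a group, the horizontal bar is their mean and the whiskers their SD. For Areg, Nrg1 and Egfr every 5-FU library lies above every untreated library, whereas the groups of Tgfa and Erbb3 overlap, and Ereg is at 0 in all 12 libraries.

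Amphiregulin is an EGFR ligand with low affinity that is produced by injured epithelia. Areg (ENSMUSG00000029378) was at 7.28, 8.48 and 7.59 CPM in the untreated LGR5+ libraries and at 47.2, 56.3 and 72.0 CPM after 5-FU. In LGR5- cells it was at 6.54, 10.5 and 6.16 CPM untreated and at 35.2, 42.8 and 47.5 CPM after 5-FU. In both populations the treated libraries lie wholly above the untreated libraries, apart from each other by more than the spread within a group; of all genes tested, 22.3% in LGR5+ and 13.7% in LGR5- cells lay higher without overlap. The log2 fold change was 2.91 ± 0.24 (SE) in LGR5+ cells with an adjusted P of 3.43e-06, a 7.52-fold rise, and 2.43 ± 0.23 in LGR5- cells with an adjusted P of 1.92e-05, a 5.41-fold rise. By P value Areg ranked 20 among the 16157 genes in LGR5+ cells and 32 in LGR5- cells. Its level among the genes tested, per kilobase of exon, went from percentile 65.4 to 91.3 in LGR5+ cells and from 65.1 to 89.2 in LGR5- cells. The order of the 4 groups was 5-FU LGR5+, 5-FU LGR5-, untreated LGR5+ and untreated LGR5-. The lowest 5-FU LGR5+ library, 47.2 CPM, was just under the highest 5-FU LGR5- library, 47.5 CPM, so these neighbours overlap, as do both untreated groups. The library at 47.5 CPM is 5-FU LGR5- replicate 3, which has many mitochondrial reads. Without it the 5-FU LGR5- libraries, at 35.2 and 42.8 CPM, lie below all 5-FU LGR5+ libraries.

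Neuregulin-1 is the ligand in the list that binds ErbB3 rather than EGFR. Nrg1 (ENSMUSG00000062991, chr8:31814551-32884029, minus strand) was low in untreated cells, with 21 to 29 reads per library. It was at 1.62, 1.72 and 1.25 CPM in untreated LGR5+ cells and at 5.73, 11.3 and 7.37 CPM after 5-FU. In LGR5- cells it went from 1.57, 1.32 and 1.61 CPM to 4.18, 5.74 and 4.18 CPM. No treated library overlaps an untreated library, and replicate 2 of 5-FU LGR5+ cells is the highest of all 12. In LGR5+ cells the log2 fold change was 2.40 ± 0.32 with an adjusted P of 0.000153, and in LGR5- cells 1.64 ± 0.32 with an adjusted P of 0.00326. Exons of Nrg1 share 482 bases with Gm26578 on the other strand, which held 4 to 55 reads per library, and the counting is not stated to use the strand, so reads of the 2 genes cannot be told apart there.

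Betacellulin is encoded at the far end of the cluster on chromosome 5. Btc (ENSMUSG00000082361, chr5:91357261-91402994, minus strand) was at 7.28, 7.005 and 4.54 CPM in untreated LGR5+ cells and at 13.1, 10.6 and 11.6 CPM after 5-FU. Its LGR5- libraries were at 5.39, 7.13 and 7.94 CPM untreated and at 10.01, 10.07 and 8.66 CPM after 5-FU. Treated and untreated libraries do not overlap in either population, but the distance is far smaller than for Areg. Btc rose by 0.91 ± 0.23 on the log2 scale in LGR5+ cells with an adjusted P of 0.0149. In LGR5- cells the log2 fold change was 0.49 ± 0.23 with an adjusted P of 0.178, which does not pass. The call in LGR5+ cells rests on single libraries: its adjusted P was 0.0778 without untreated LGR5+ replicate 3, 0.0503 without 5-FU LGR5+ replicate 1 and 0.0525 without 5-FU LGR5+ replicate 3, and over all 13 alternatives it ranged from 0.00222 to 0.0778.

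HB-EGF was the ligand with the highest count in every library. Hbegf (ENSMUSG00000024486, on chromosome 18) was at 127, 180 and 139 CPM in untreated LGR5+ cells and at 188, 206 and 209 CPM after 5-FU. In LGR5- cells it was at 133, 158 and 118 CPM untreated and at 164, 196 and 141 CPM after 5-FU, where the groups overlap. For Hbegf the log2 fold change was 0.44 ± 0.19 in LGR5+ cells with a 95% interval of 0.02 to 0.85 and an adjusted P of 0.142, and 0.29 ± 0.19 in LGR5- cells with an adjusted P of 0.346. The diphtheria toxin receptor of the knock-in allele is a primate HB-EGF, so reads from the allele may have been counted on Hbegf. The part of the allele in these values was not tested.

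TGF-alpha is an EGFR ligand made by many epithelia. Tgfa (ENSMUSG00000029999, chr6:86195223-86275719, plus strand) was at 24.2, 37.5 and 28.2 CPM in untreated LGR5+ cells and at 27.5, 23.2 and 25.3 CPM after 5-FU. In LGR5- cells it was at 23.0, 21.7 and 33.8 CPM untreated and at 26.8, 23.4 and 25.9 CPM after 5-FU. The groups overlap throughout, and the highest LGR5- value is that of untreated replicate 3, the library with many mitochondrial reads. The log2 fold change with 5-FU was -0.25 (95% interval -0.68 to 0.19) in LGR5+ cells and -0.05 (-0.48 to 0.39) in LGR5- cells. Without both LGR5- replicate 3 libraries the latter was 0.17 with an adjusted P of 0.62.

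The remaining ligands of the list were at or near the limit of counting. Ereg (ENSMUSG00000029377, chr5:91074622-91093646, plus strand), the neighbour of Areg, had 0 reads in all 12 libraries, which allows at most 0.220 CPM in the shallowest library. Epgn (ENSMUSG00000035020, chr5:91027464-91035215, plus strand) had 0 reads in each untreated LGR5+ library and 3, 10 and 12 reads after 5-FU. The treated mean of 0.474 CPM is 2.65 times the 0.179 CPM that 3 reads, allowed by a count of 0, make in the untreated LGR5+ libraries. The ratio leaves out the counting error of the treated reads. Treated LGR5+ replicate 1, with 3 reads, is itself at that limit. In LGR5- cells it had 0, 1 and 2 reads untreated and 4, 3 and 1 after 5-FU, too few for a fold. Among the further family genes Egf, Nrg2, Nrg3, Nrg4 and Erbb4, Egf alone passed the filter, with 6 to 36 reads per library and log2 fold changes of -0.24 in LGR5+ and 0.62 in LGR5- cells that were not called. Nrg3 had 0 reads in all libraries and Erbb4 a single read in 1 of them.

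EGFR is the receptor for most of these ligands. Egfr (ENSMUSG00000020122, chr11:16752203-16918158, plus strand) was at 3.29, 3.75 and 3.35 CPM in untreated LGR5+ cells and at 9.28, 11.2 and 9.76 CPM after 5-FU. Its LGR5- libraries went from 3.21, 2.96 and 4.55 CPM to 6.30, 6.91 and 7.41 CPM. The treated libraries lie above the untreated libraries in both populations, and the 5-FU LGR5+ libraries lie above the 5-FU LGR5- libraries. Egfr rose by 1.54 ± 0.24 on the log2 scale in LGR5+ cells with an adjusted P of 0.000489, and by 0.94 ± 0.23 in LGR5- cells with an adjusted P of 0.0141. The LGR5- call was lost when only the 6 LGR5- libraries were fitted, with an adjusted P of 0.102, and when untreated LGR5- replicate 1 (0.0629) or replicate 2 (0.0638) was left out, within a range of 0.00132 to 0.102 over 14 alternatives. Without both LGR5- replicate 3 libraries the log2 fold change of Egfr was 1.10.

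The other two receptors differed little with 5-FU. Erbb2 (ENSMUSG00000062312, chr11:98412470-98437716, plus strand), the partner receptor without a known ligand, was at 44.2, 44.3 and 40.0 CPM in untreated LGR5+ cells and at 40.2, 44.6 and 51.0 CPM after 5-FU. Its LGR5- libraries were at 39.0, 41.3 and 33.0 CPM untreated and at 34.6, 34.7 and 29.4 CPM after 5-FU. The log2 fold change was 0.08 (95% interval -0.26 to 0.42) in LGR5+ and -0.20 (-0.54 to 0.14) in LGR5- cells, so a change of the size seen for Egfr lies outside both intervals. Erbb3 (ENSMUSG00000018166, chr10:128567523-128589652, minus strand), which binds neuregulins, was at 28.9, 37.9 and 31.2 CPM in untreated LGR5+ cells and at 38.6, 34.0 and 32.7 CPM after 5-FU. Its LGR5- libraries were at 28.2, 33.1 and 50.7 CPM untreated and at 42.3, 36.1 and 44.6 CPM after 5-FU, with the highest value again in untreated replicate 3. The log2 fold change of Erbb3 was 0.10 (-0.34 to 0.55) in LGR5+ and 0.13 (-0.31 to 0.58) in LGR5- cells. In LGR5- cells it was 0.36 without both replicate 3 libraries, 0.42 without untreated replicate 3, 0.06 without untreated replicate 2, -0.03 without untreated replicate 1 and 0.22 without 5-FU replicate 2, with adjusted P values from 0.113 to 0.951 over 14 alternatives.

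**Figure D2:**
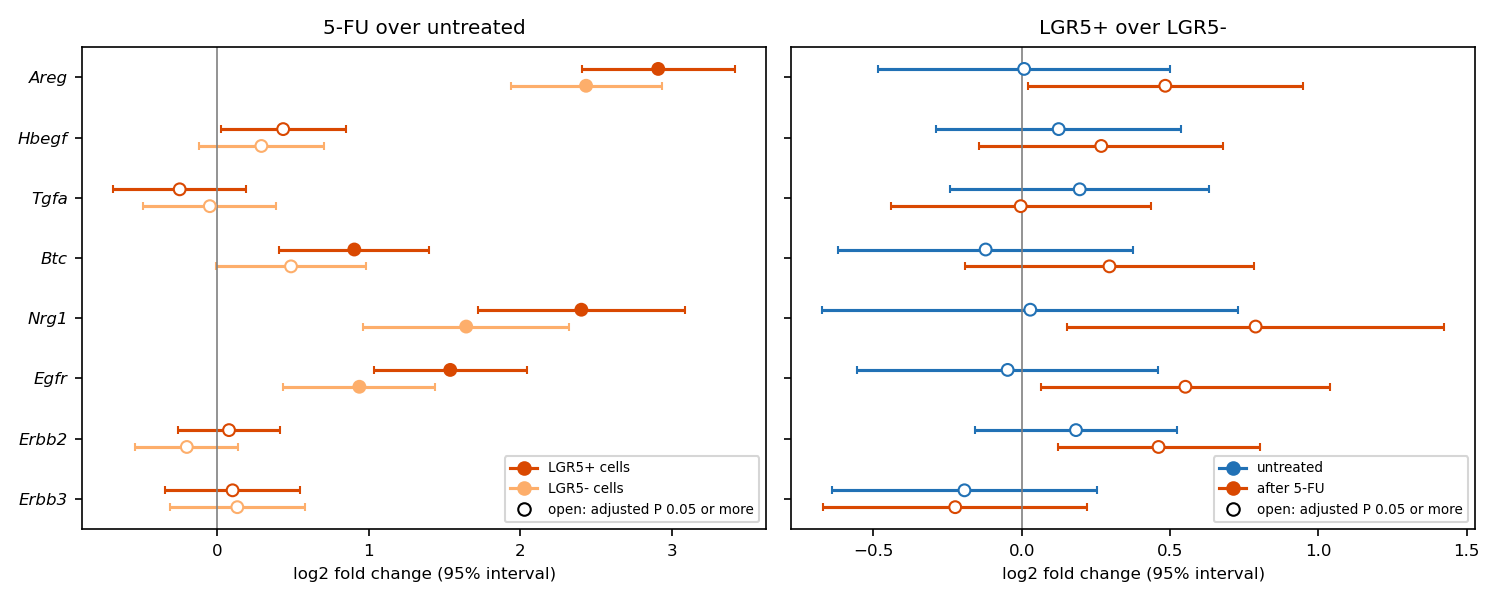
Log2 fold changes (horizontal axis) with 95% intervals for the 8 genes tested, for 5-FU over untreated cells (left) and LGR5+ over LGR5- cells (right). Filled points have an adjusted P under 0.05: Areg, Nrg1 and Egfr in both populations and Btc in LGR5+ cells. All points in the right panel are open.

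Whether the sorted populations differed was compared within each treatment. In untreated cells no member was called, and none had an unadjusted P under 0.05; of all genes tested 0% were called, with 214 genes at an unadjusted P under 0.05 and 0 called by DESeq2. For Areg the LGR5+ over LGR5- log2 fold change was 0.01 (95% interval -0.48 to 0.50) and for Egfr it was -0.05 (-0.56 to 0.46). After 5-FU again no member and 0% of all genes were called by edgeR's test, with 2095 genes at an unadjusted P under 0.05, 80 called by DESeq2 and 11 called by edgeR without a filter on low counts. Of the 8 members 4 had an unadjusted P under 0.05, with higher means in LGR5+ cells, where 13% of all genes did. These were Nrg1 at a log2 fold change of 0.79 ± 0.30, Egfr at 0.55 ± 0.23, Areg at 0.48 ± 0.22 and Erbb2 at 0.46 ± 0.16, with adjusted P values of 0.357, 0.365, 0.373 and 0.349. The LGR5+ libraries lie wholly above the LGR5- libraries for Egfr and Erbb2, as for 14.2% of all genes. Those of Areg and Nrg1 overlap, Areg through 5-FU LGR5- replicate 3 alone. Btc also showed no overlap, with an unadjusted P of 0.214. Libraries with the same replicate number were also compared as pairs, a pairing that the labels do not state. The LGR5+ library was the higher of all 3 pairs for Areg, Nrg1, Hbegf, Btc, Egfr and Erbb2, as for 29.6% of all genes. It was the higher in 1 pair for Tgfa and in none for Erbb3. With the number as a block none of the 8 was called. The difference between the 5-FU responses of the populations was tested as an interaction, which called no member and 0% of all genes, with 254 genes at an unadjusted P under 0.05. It was 0.48 ± 0.32 on the log2 scale for Areg, 0.76 ± 0.44 for Nrg1 and 0.60 ± 0.33 for Egfr, with unadjusted P values of 0.154, 0.107 and 0.0894, so a stronger response of the LGR5+ cells was not shown. Over 19 alternatives it ranged from 0.19 to 0.72 for Areg, 0.45 to 0.96 for Nrg1 and 0.39 to 0.72 for Egfr. The LGR5+ over LGR5- value of Nrg1 after 5-FU ranged from 0.49 to 0.99 over 14 alternatives.

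To compare the ligands with each other, CPM were divided by the exon length of each gene. In untreated LGR5+ cells Hbegf led, at 30.7 ± 5.73 CPM per kb (SD, n = 3), and Areg followed at 6.40 ± 0.514, Tgfa at 4.62 ± 1.05, Btc at 1.39 ± 0.334 and Nrg1 at 0.148 ± 0.0236. After 5-FU Areg was at 48.2 ± 10.3 and Hbegf at 41.6 ± 2.43 CPM per kb in LGR5+ cells, a difference within the spread of the libraries, and in LGR5- cells they were at 34.5 ± 5.10 and 34.6 ± 5.63. Areg thus went from 14.9% ± 1.26 to 49.1% ± 4.27 of the summed ligand level in LGR5+ cells and from 15.6% ± 2.64 to 45.6% ± 5.89 in LGR5- cells. The share of Hbegf went from 70.9% ± 1.20 to 43.0% ± 3.25 and from 69.9% ± 3.17 to 45.7% ± 5.65. The shares are parts of the same sum, so the lower share of Hbegf is not a separate result and its own level was not lower. They also depend on the division by length. In CPM after 5-FU, Areg was at 58.5 and Hbegf at 201 in LGR5+ cells, and at 41.9 and 167 in LGR5- cells. Reads of the knock-in allele may be part of Hbegf here too, which was not tested. The groups do not overlap for the share of Areg in either population; a two-sided exact permutation test gave P = 0.1 each time, the smallest P that 3 libraries against 3 allow. The ligand sum itself was 43.3 ± 7.39 CPM per kb in untreated and 97.4 ± 12.4 in treated LGR5+ cells, and 40.3 ± 5.31 and 75.6 ± 6.22 in LGR5- cells.

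Among the receptors Erbb2 and Erbb3 held nearly all of the level per length, and Egfr was the lowest in all 12 libraries. Egfr made up 2.19% ± 0.0525 of the receptor sum in untreated LGR5+ cells and 5.77% ± 0.624 after 5-FU, and 2.28% ± 0.369 and 4.43% ± 0.456 in LGR5- cells, again without overlap between treated and untreated libraries. The receptor sum was 14 ± 1.04 CPM per kb in untreated and 15.4 ± 0.607 in treated LGR5+ cells, and 13.8 ± 1.37 and 13.7 ± 0.475 in LGR5- cells. The receptor sums of treated and untreated libraries overlap in both populations. Between the populations after 5-FU, the LGR5+ libraries lie wholly above the LGR5- libraries for the ligand sum, the receptor sum, the Egfr share and the Erbb2 share, which was 56.3% against 46.0%, and wholly below for the Erbb3 share, at 37.9% against 49.6%. Each of these gave P = 0.1 by the same exact permutation test, again the smallest P possible. The shares of Erbb2 and Erbb3 nearly fill the same sum, so the lower Erbb3 share is not a separate result. The level of Erbb3 itself overlapped between these groups, with a log2 fold change of -0.22 and an adjusted P of 0.608 by edgeR's test.

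**Figure D3:**
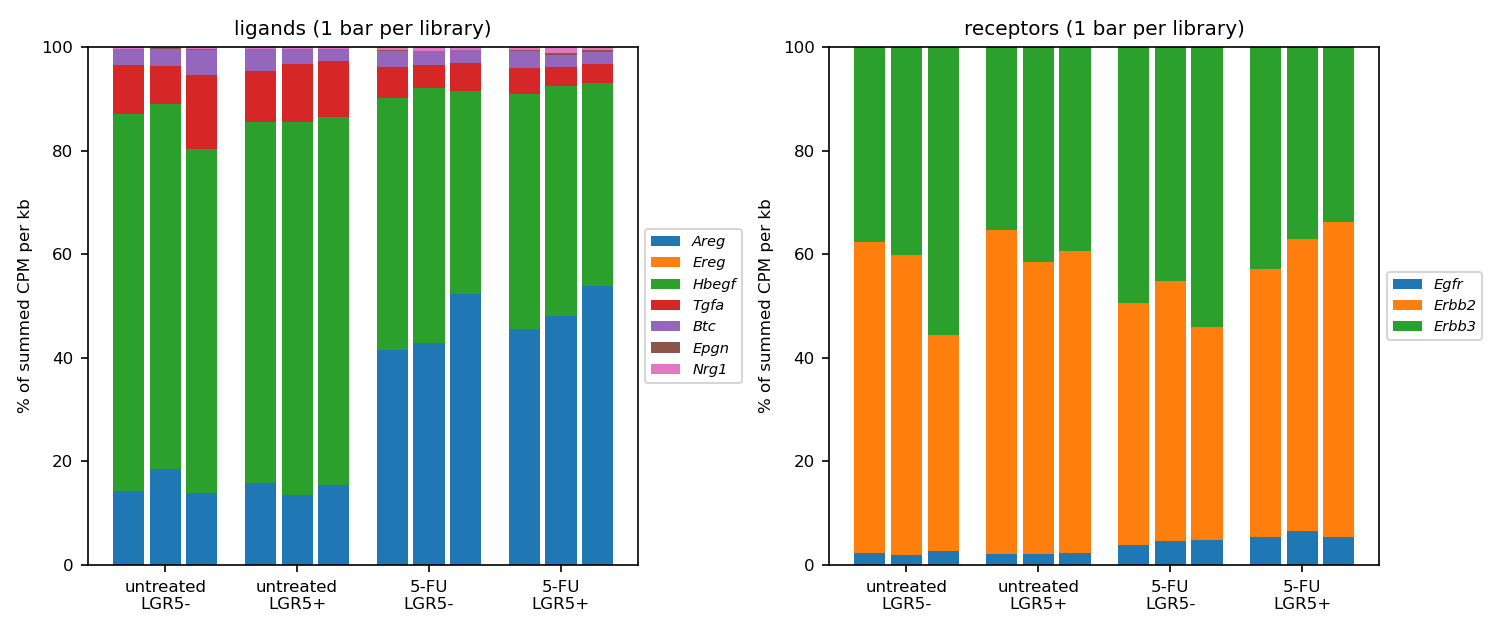
Share of each ligand (left) and receptor (right) in the summed CPM per kb of its set (vertical axis, %), with 1 bar for each of the 12 libraries. Areg takes 13.5% to 18.6% of the ligand sum in the untreated libraries and 41.6% to 53.8% in the treated libraries. Egfr stays under 6.5% of the receptor sum.

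Genes that act on the ligands and behind the receptors were read from 4 lists. The median log2 fold change of all genes with 5-FU was -0.02 in LGR5+ and -0.05 in LGR5- cells, and the shares of all genes called, against which each list is to be read, were 9.66% higher and 6.37% lower in LGR5+ and 8.3% higher and 7.11% lower in LGR5- cells. Of 10 genes for the shedding of ligands, 6 rose and none fell in LGR5+ cells, with a median log2 fold change of 0.72, and 3 rose and 1 fell in LGR5- cells, with a median of 0.23. The metalloproteinase gene Adam8 went from 0.523 ± 0.402 to 8.97 ± 0.660 CPM in LGR5+ cells, a log2 fold change of 4.09 ± 0.50. Timp3, which encodes an inhibitor of ADAM proteases and so acts against shedding, rose from 25.1 ± 2.76 to 122 ± 17.8 CPM, by 2.28 ± 0.20 on the log2 scale. Rhbdf2, whose product iRhom2 carries ADAM17 to the cell surface, rose by 0.75 ± 0.15 and the metalloproteinase gene Adam15 by 0.74 ± 0.15. In LGR5- cells Adam8, Timp3 and Rhbdf2 rose by 2.74, 1.47 and 0.75, and Adam15 was not called at 0.28. Adam17 itself was at 0.04 in LGR5+ and -0.37 in LGR5- cells and Adam10 at 0.10 and 0.15, all uncalled, and the gene that fell in LGR5- cells was Adam12, at -1.90, which was at -1.22 in LGR5+ cells and not called there. These last genes were chosen for mention after their values were seen.

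Of 26 genes that relay the signal from the receptors, 2 rose and none fell in LGR5+ cells, and none was called in LGR5- cells, with median log2 fold changes of 0.06 and -0.12. The count in LGR5+ cells is near the share of all genes called higher. The RAF kinase gene Araf rose by 0.66 ± 0.16 on the log2 scale and the RAS gene Hras by 0.84 ± 0.23 in LGR5+ cells. Nras was at 0.36 ± 0.17 and the adaptor gene Shc1 at 0.36 ± 0.20, with adjusted P values of 0.162 and 0.245.

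Of 21 genes for inhibitors and receptor turnover, 2 rose and 1 fell in LGR5+ cells, and 1 rose and 3 fell in LGR5- cells, with medians of -0.04 and 0.03. These counts are near the 16% and 15.4% of all genes called in either direction. Errfi1, which encodes the EGFR inhibitor MIG6, rose from 152 ± 10.8 to 427 ± 91.3 CPM in LGR5+ cells, by 1.49 ± 0.24 on the log2 scale, and by 0.85 ± 0.23 in LGR5- cells. Lrig1, which encodes a membrane protein that lowers ErbB levels, fell from 48.8 ± 2.44 to 18.9 ± 1.64 CPM in LGR5+ cells, a log2 fold change of -1.37 ± 0.19, and the log2 fold change in LGR5- cells was -1.40 ± 0.19. Spry1, a feedback inhibitor of RAS-ERK signalling, rose by 0.95 ± 0.21 in LGR5+ cells and was at 0.63 ± 0.21 in LGR5- cells with an adjusted P of 0.0556. The related genes Spry2 and Spred1 fell in LGR5- cells, at -0.77 and -0.62, and were uncalled in LGR5+ cells, at -0.46 and -0.30. Spry4 was uncalled at -1.07 in LGR5+ and -0.68 in LGR5- cells. Spry2, Spred1 and Spry4 were chosen for mention after their values were seen. Nf1, a negative regulator of RAS, was at -0.98 ± 0.35 in LGR5+ cells with an adjusted P of 0.0702.

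Of 14 genes known to respond to ERK signalling, 7 rose and 1 fell in LGR5+ cells with a median log2 fold change of 0.79, and 6 rose and 1 fell in LGR5- cells with a median of 0.46. The AP-1 subunit genes Junb and Fosl1 rose by 1.41 ± 0.18 and 2.66 ± 0.42 in LGR5+ cells and by 1.25 ± 0.18 and 2.27 ± 0.43 in LGR5- cells. Plaur, the urokinase receptor gene, rose by 2.30 ± 0.33 and 1.61 ± 0.32, and the cyclin D1 gene Ccnd1 by 1.49 ± 0.26 and 1.20 ± 0.26. The gene that fell in both populations was Etv4, an ETS factor, at -1.24 ± 0.25 and -1.01 ± 0.25. Called in neither population were Etv5, at -0.77 and -0.65, Ier3, at -0.40 and -0.52, and Egr1, at 0.01 and -0.05. Nor were Phlda1, at -0.12 and 0.37, Myc, at 0.48 and 0.28, and Atf3, at 0.48 and 0.35. Etv4 and these uncalled genes were chosen for mention after their values were seen. These genes respond to other signals too, and whether ErbB receptors were active was not measured.

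**Figure D4:**
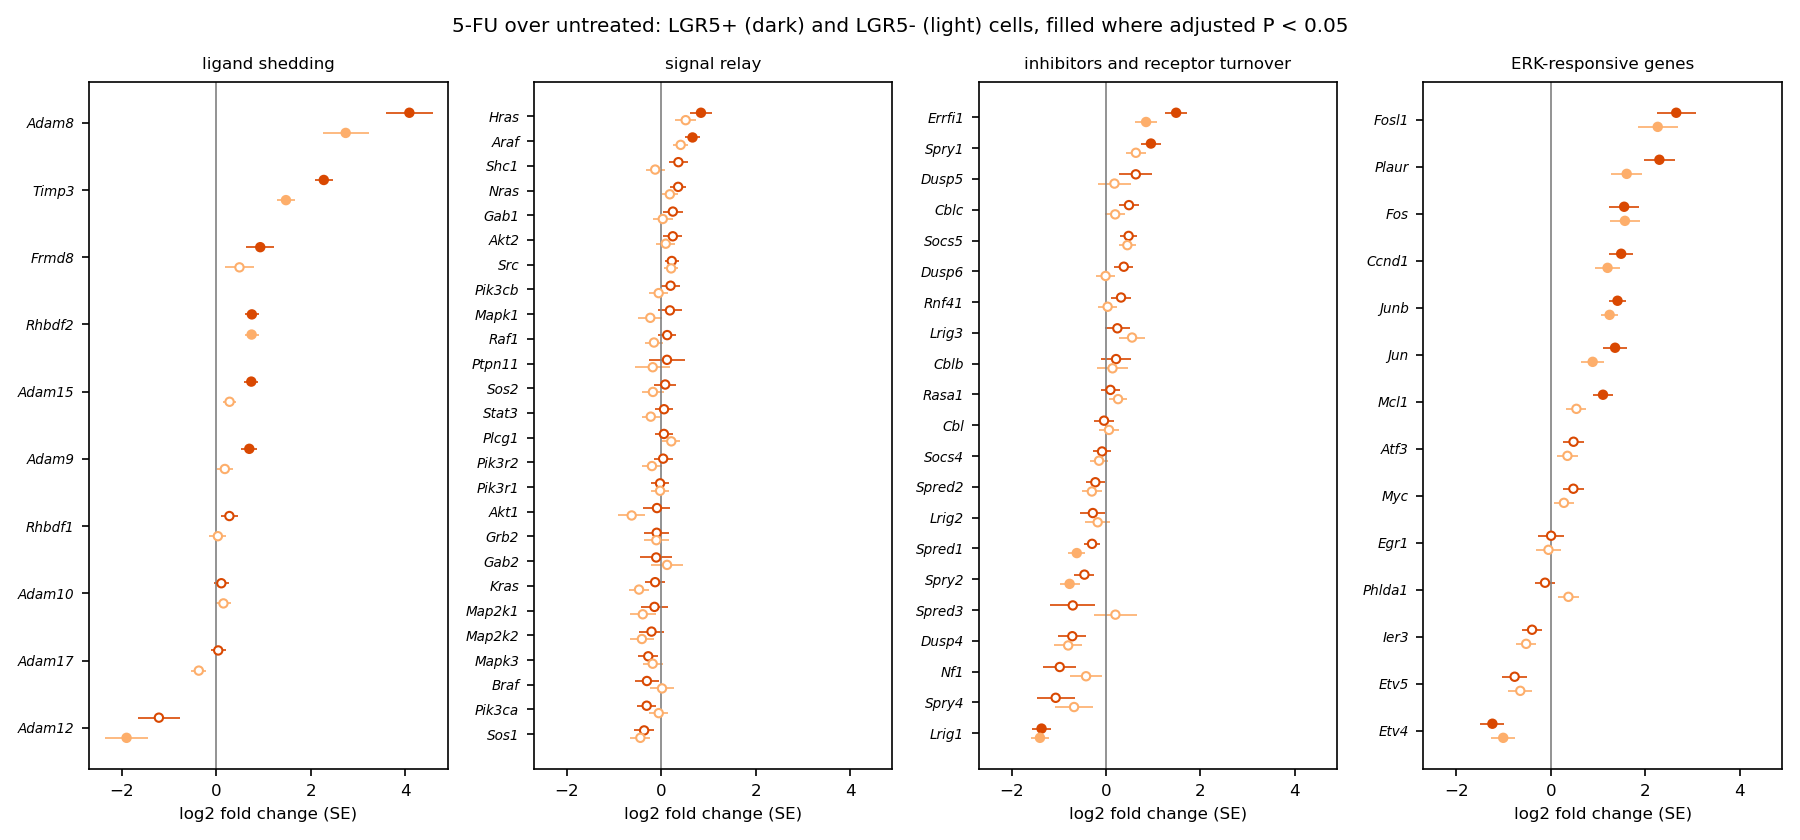
Log2 fold change for 5-FU over untreated cells (horizontal axis, with SE) of each tested gene in the lists of ligand shedding, signal relay, inhibitors and receptor turnover, and ERK-responsive genes. Dark points are LGR5+ and light points LGR5- cells, filled at an adjusted P under 0.05. Most signal relay genes sit near 0, whereas Adam8, Timp3, Fosl1 and Plaur lie above 1 in both populations.

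Markers of other cell types moved with 5-FU beside these changes. The summed level of 7 leucocyte markers was 12.5 to 39.9 CPM in untreated and 72.9 to 131 CPM in treated libraries, almost all of it from Lyz2 and Cd68, while Cd3e was at 0 reads in all libraries and Ptprc, which encodes the CD45 used to exclude leucocytes in the sort, had 3 to 36 reads per library. The cholangiocyte sum was 2360 to 3090 CPM in untreated and 3410 to 11900 CPM in treated libraries, and this came from the keratin genes Krt19, at log2 fold changes of 2.94 in LGR5+ and 2.35 in LGR5- cells, and Krt7, at 2.64 and 1.75. Epcam, at -0.13 and -0.50, and Sox9, at 0.22 and 0.04, were not called. Among lung epithelium markers Sftpd rose by 2.69 and 2.48 and Scgb1a1 by 4.15 in LGR5- cells, with Scgb1a1 at 3.31 in LGR5+ cells (adjusted P of 0.0767) and Sftpa1 at 1.85 in both populations (0.0663 and 0.0693) not called. Sftpc was not called either, and the list sum was 3550 to 17500 CPM in untreated LGR5-, 5000 to 15800 in untreated LGR5+, 4340 to 6480 in 5-FU LGR5- and 3050 to 6240 CPM in 5-FU LGR5+ libraries. The hepatocyte marker Afp rose by 1.31 and 1.43, with the list sum at 11.2 to 22.6 CPM in untreated and 26.3 to 56.8 CPM in treated libraries. The fibroblast marker Pdgfrb fell, at -1.05 and -1.24, with the list sum at 41 to 50.2 CPM in untreated and 26.2 to 60.9 CPM in treated libraries. The part of these shifts in the rise of Areg, Nrg1, Egfr and Btc was not tested.

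The genes with the most similar pattern to each called member were found by Pearson's r of log2 CPM over the 12 libraries, which share the treatment difference. For Areg these were Bscl2 at 0.991, Gm15987 at 0.991 and Pmepa1 at 0.990. For Egfr they were Adam8 at 0.989, Casq2 at 0.983 and Krtdap at 0.982. Klk6 at 0.982, Vwa5a at 0.981 and Icam1 at 0.981 lay nearest to Nrg1, and Bbs4 at 0.965, C3 at 0.942 and Zbtb7c at 0.920 to Btc. Among the members that were not called, the nearest genes were Zfp362, Stard10 and Rab14 at 0.948 to 0.936 for Hbegf, and Pex26, BC046401 and Gm37510 at 0.965 to 0.954 for Erbb3.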

How the data were processed

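The authors sorted LGR5–GFP+ and LGR5–GFP- organoid cells, excluding dead and CD45-positive cells, and amplified the RNA with a kit that the study's methods call SMARTer. They deposited read counts per Ensembl gene for 12 libraries, without normalization. The submitters' processing notes name HISAT, HISAT2, TopHat2, HTSeq and the build mm8, with no version or role. Groups were read from the sample titles together with the design text. Symbols, positions and exon lengths came from GENCODE M21 on GRCm38, which matched 46488 of 47069 identifiers and left 581 unmatched, and promoter sequences from RefSeq on GRCm38.p6.

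Counts were filtered by filterByExpr, leaving 16157 genes, and TMM-scaled; edgeR 4.0.16 in R 4.3.3 fitted all 12 libraries by glmQLFit (robust) with 4 group means. The common dispersion was 0.0708. Contrasts were tested two-sided by glmQLFTest with Benjamini-Hochberg adjustment over all genes tested, and called at an adjusted P under 0.05. SEs were obtained from the log2 fold change and the F value, and 95% intervals use the t distribution on the fit's degrees of freedom. CPM per kb divide CPM by the merged exon length, which covers exons of all isoforms. The pipeline was tested on simulated data. None of the 66 pairs of libraries was a copy, with a chi-square of 4.42 to 239 per degree of freedom. Replicate numbers were taken to pair the 5-FU LGR5+ and LGR5- libraries, whose same-numbered deviations from the group means correlated at 0.571, 0.217 and 0.304, while in the other comparisons at least 1 number did not reach 0.1. The labels do not state this pairing. By chi-square per degree of freedom, 5-FU LGR5+ replicate 3 was nearer to 5-FU LGR5- replicate 2 (27.8) than to 5-FU LGR5- replicate 3 (125.7).

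All 10 genes were described, with the 4 genes of each pathway list with the smallest P in LGR5+ cells and the 3 genes most like each tested member, correlated on log2(CPM + 0.5). The genes most like Tgfa and Erbb2 are not reported here. Members and lists were chosen with earlier results of these data known. Alternatives were leaving out the filter, a minimum of 10 reads per library, RLE scaling, library size only, DESeq2 1.42.0, only the libraries compared, a replicate block, the study's thresholds (P under 0.05 and a log2 change over 1.5 in either direction), and each library left out in turn. Leaving out both LGR5- replicate 3 libraries was added after seeing the data.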

Additional observations from a re-analysis of the deposited data

How the results depend on the processing

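The number of members called stayed at 3 to 5 in LGR5+ and 2 to 3 in LGR5- cells with 5-FU under all alternatives, and the additional member without a filter was Epgn. Over the alternatives the log2 fold change of Areg ranged from 2.74 to 3.05 in LGR5+ and from 2.19 to 2.72 in LGR5- cells, and that of Nrg1 from 2.10 to 2.61 and from 1.47 to 1.78, always called. Counts over all genes moved more than those of the members: 2590 genes were called with 5-FU in LGR5+ and 2489 in LGR5- cells, against 4045 and 1282 when only the libraries compared were fitted, with 1373 to 2488 and 1562 to 3418 when a library was left out. Among the fits that left out a library, the counts moved by over 1.5 times without untreated LGR5+ replicate 3 or 5-FU LGR5+ replicate 2 or 3, and without untreated LGR5- replicate 1 or 2 or 5-FU LGR5- replicate 2. By the study's thresholds, 1168 and 1131 genes passed with 5-FU, 74 and 274 between LGR5+ and LGR5- cells untreated and after 5-FU, and 69 for the difference between responses. Between LGR5+ and LGR5- cells after 5-FU the count went from 0 to 11 without a filter and to 80 with DESeq2. The cause of these shifts was not tested. With the replicate block 2967 and 2890 genes were called with 5-FU in LGR5+ and LGR5- cells, and no member's call changed. Of 592 alternatives for single genes, 582 kept direction or stayed within the error of an uncalled value. Depth limits Ereg and Epgn, for which a rise smaller than a few reads per library was not detectable.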
